A study of Homo sapiens with 6 samples.

Results

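KLF transcription factors were followed in A549, an established human lung adenocarcinoma cell line, after knockdown of STAU1, a protein that binds double-stranded stretches of RNA. The 10 genes described here, KLF3, KLF4, KLF5, KLF6, KLF7, KLF9, KLF10, KLF11, KLF13 and KLF16, were taken by symbol from the deposited count table. All 10 were listed among its 30493 genes and all 10 passed the filter on low counts, with 17089 genes tested. The study set 3 libraries labelled NC, whose genotype is given as control plasmid, against 3 libraries labelled si_STAU1, whose genotype is given as STAU1 knockdown. All libraries came from the same line with no other treatment named. Whether the 3 libraries of each group were grown as separate cultures is not stated, so the p-values reflect library-to-library spread alone, and that spread may be technical. The control is named as a plasmid and the knockdown columns carry the prefix si, and no source used here gives the reagent's sequence.

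Krüppel-like factors bind GC-rich and CACCC-type DNA through 3 zinc fingers toward the protein's end, while the rest recruits partners that differ between members. They fall into 3 subgroups by those partners: subgroup 1 (here KLF3) binds the corepressor CtBP, subgroup 2 (KLF4, KLF5, KLF6 and KLF7) mostly activates transcription with acetyltransferases, and subgroup 3 (KLF9, KLF10, KLF11, KLF13 and KLF16) binds the Sin3A corepressor. Several members are switched on quickly by serum, stress, glucocorticoids or TGF-beta, and in lung epithelium they are known for roles in differentiation, growth control and repair after injury.

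The start regions of the members differed widely in base composition, and 3 of them are shown because they stand upstream of the gene with the largest rise among the 10, the gene that fell, and a gene that was not called. The letters come from RefSeq promoters on build GRCh38.p14, on the gene's strand, and capitals mark GC boxes (GGGCGG or its reverse, CCGCCC), the kind of element that KLF and SP proteins bind, or CACCC on either strand. The KLF6 stretch is chr10:3785282-3785459, minus strand, cut where an annotated exon begins. The KLF16 stretch is chr19:1863580-1863829 and the KLF9 stretch is chr9:70414658-70414907, both on the minus strand.
KLF6: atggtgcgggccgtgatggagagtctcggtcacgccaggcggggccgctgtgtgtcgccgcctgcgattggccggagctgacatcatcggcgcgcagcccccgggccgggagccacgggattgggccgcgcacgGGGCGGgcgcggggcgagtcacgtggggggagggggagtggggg
KLF16: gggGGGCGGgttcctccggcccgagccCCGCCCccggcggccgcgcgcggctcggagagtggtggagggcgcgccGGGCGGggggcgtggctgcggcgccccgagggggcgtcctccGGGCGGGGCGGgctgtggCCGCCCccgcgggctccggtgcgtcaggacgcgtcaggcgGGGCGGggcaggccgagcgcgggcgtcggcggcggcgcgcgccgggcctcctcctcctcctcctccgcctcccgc
KLF9: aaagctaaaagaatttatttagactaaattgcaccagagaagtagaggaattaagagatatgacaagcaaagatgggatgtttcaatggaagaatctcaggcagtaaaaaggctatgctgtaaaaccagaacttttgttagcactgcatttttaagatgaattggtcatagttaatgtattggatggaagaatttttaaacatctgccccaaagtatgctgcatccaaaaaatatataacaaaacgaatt
Over the 250 bases before the start, GC content was 72.4% for KLF6, 86.4% for KLF16 and 32.4% for KLF9, against a median of 65.2% over 8247 tested genes with 1 listed start. GC boxes were found 7 times for KLF16, 4 times for KLF4, 3 times for KLF13, 2 times for KLF6 (1 of them in the stretch printed) and 0 times for KLF9. At least 1 GC box lay in 4 of the 5 members with 1 listed start and in 68.2% of the 8247 promoters. CACCC (reverse GGGTG) was found in 1 of the 5, KLF13, and in 58.2% of promoters. In KLF13 a CACCC overlaps a GC box. KLF4 and KLF16, which moved in opposite directions, both held the GC box, as did KLF6. Of the members with several listed starts, all called higher, KLF5 and KLF7 held 0 GC boxes before the first listed start and KLF11 held 2. These matches describe letters only.

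The knockdown was visible in the target. STAU1 measured 120, 125 and 117 CPM in the 3 controls and 16.0, 15.7 and 14.6 in the 3 knockdown libraries, a log2 fold change of -2.97 ± 0.04 (SE), or 7.83-fold lower. CPM, a gene's count relative to the depth of its library, is scaled here by TMM factors, which align the libraries on the bulk of their genes. Total counts ran from 30354219 to 35431441 per library. The mitochondrial share of counts was 17.3% to 17.9% in controls and 15.8% to 16.1% in knockdown libraries. All 7 epithelial markers were detected: 3 were called lower (KRT7, KRT8 and KRT18), 3 higher (CDH1, EPCAM and MUC1) and KRT19 was not called. KRT8 went from 4371 ± 60.9 to 3328 ± 50.9 CPM (SD, n = 3) and CDH1 from 86.2 ± 2.07 to 122 ± 3.28. Of 6 markers of alveolar type II cells, ABCA3 was at 17.6 ± 1.40 and 19.1 ± 0.95 CPM and NAPSA at 1.85 ± 0.30 and 1.84 ± 0.07, neither called, and LAMP3 was at 0.301 and 0.104. Among the surfactant genes, SFTPC stood near 0.15 CPM in both groups, and SFTPA1 and SFTPB went from means of 5.50 and 2.24 CPM to 0 counts in all 3 knockdown libraries. Markers of other cell types were low: the 4 listed immune markers of 6 summed to 13.1 to 14.1 CPM in controls and 15.9 to 18.5 in knockdown libraries, the 4 listed fibroblast markers of 5 to 9.83 to 10.3 and 14.1 to 16.5, and the 5 endothelial markers to 1.10 to 1.34 and 1.77 to 2.62. CD14 made up most of the immune sum, at 12.7 ± 0.33 and 15.9 ± 1.25 CPM, a level above that of KLF4 and KLF11. CD14, LUM, THY1 and CDH5 were called higher, and ITGAM and PECAM1 were not called. The remaining listed markers did not pass the filter. PTPRC, CD3E, COL1A2 and the 3 erythroid markers are not rows of the table used. The part of any of these shifts in the KLF values was not tested, and in bulk RNA fewer cells of a type and less RNA per cell cannot be told apart.

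Most of the KLF genes were higher after STAU1 knockdown, by small amounts except for KLF6. By edgeR's quasi-likelihood test, with p adjusted over all tested genes by Benjamini-Hochberg and called under 0.05, 7 of the 10 rose: KLF3, KLF4, KLF5, KLF6, KLF7, KLF11 and KLF13. KLF16 fell, and KLF9 and KLF10 were not called. Over all tested genes, 22.2% were called higher and 22.0% lower, though the 10 were chosen with earlier results of these data known. The median log2 fold change was 0.17 over the 10 members and -0.00036 over all tested genes, which describes these genes and is not a test. In CPM the 2 groups did not overlap in 8 members, 6 of them higher (against 25.8% of all tested genes) and 2 lower (against 25.5%). The count of 7 was 4 under DESeq2, where KLF4, KLF11 and KLF13 lost their call, 4 without control replicate 3 (KLF5, KLF11 and KLF13 lost) and 4 without knockdown replicate 3 (KLF4, KLF11 and KLF13 lost). The 50.3% of all calls that were higher became 69.5% when libraries were scaled by total counts, 77.2% on log2(FPKM + 1) and 77.3% on log2(FPKM + 0.1), settings that moved the median over all genes from -0.00036 to 0.08, 0.05 and 0.10 on the log2 scale.

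**Figure D1:**
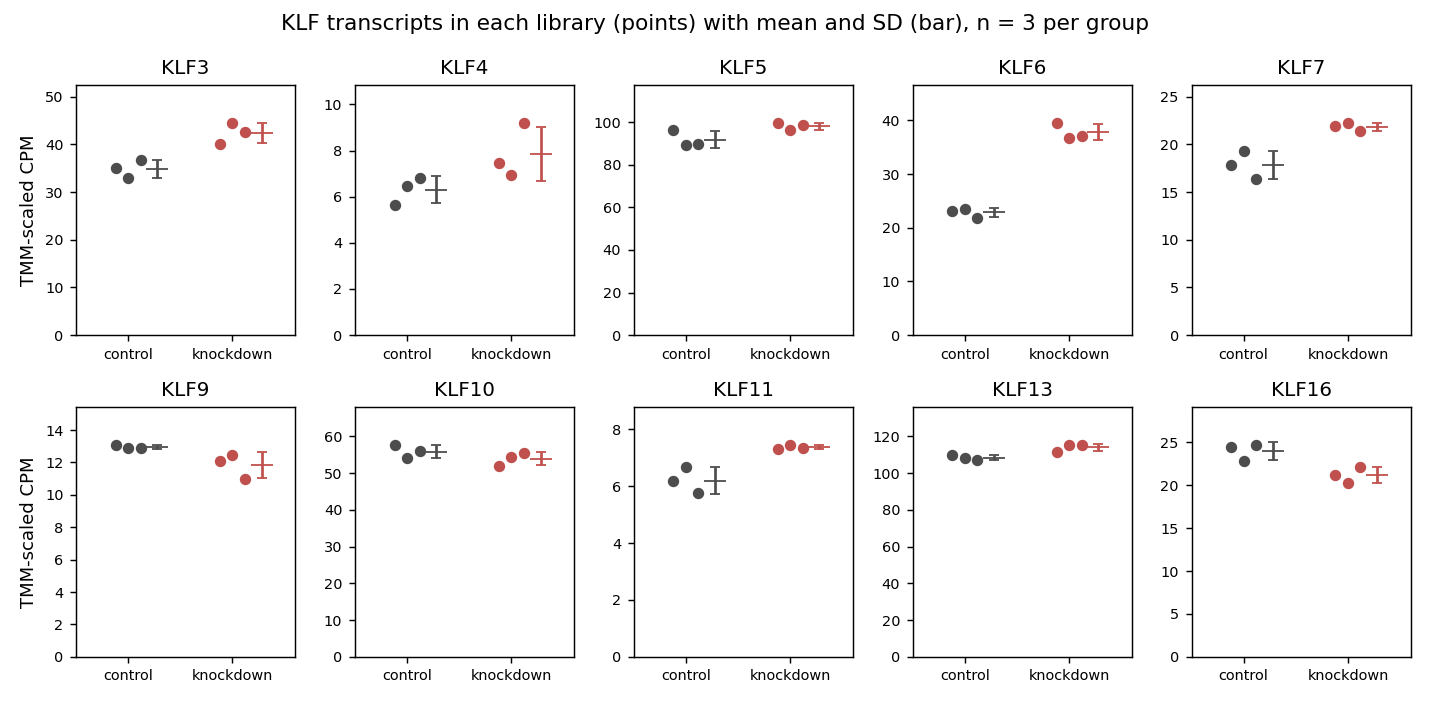
TMM-scaled CPM (linear axes from 0, 1 panel per gene) of the 10 KLF genes in each control and knockdown library (points), with the group mean and SD beside them, n = 3 per group. KLF6 shows the widest gap, with knockdown libraries at 36.7 to 39.5 and controls at 21.8 to 23.5, while KLF5 and KLF10 overlap between groups.

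Subgroup 2, the mainly activating members, rose in 4 of 4 genes, against 22.2% of all tested genes. Their median log2 fold change was 0.31, with a range of 0.10 to 0.73. The calls of KLF4 and KLF5 were lost under some alternatives. KLF6, an immediate-early gene of injured and stimulated cells and a candidate tumour suppressor, lies on chromosome 10 from 3775996 to 3785281 (ENSG00000067082.15). It measured 23.2, 23.5 and 21.8 CPM in controls and 39.5, 36.7 and 37.1 in knockdown libraries. Every knockdown library was well above every control. The log2 fold change was 0.73 ± 0.05 (SE, edgeR adjusted p 9.7e-18; 95% interval 0.63 to 0.82), a 1.65-fold rise. By fold change KLF6 ranked 507 of 17089 genes from the top, ahead of the other 9 KLF genes described here, of which the next, KLF4, ranked 2365. Across 16 alternative settings the value stayed between 0.67 and 0.81 and the call held in each.

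KLF4, a factor of epithelial differentiation and of reprogramming to pluripotency, had one of the lowest levels (chromosome 9, 107484852 to 107490482; ENSG00000136826.15). Control libraries gave 5.64, 6.47 and 6.81 CPM and knockdown libraries 7.45, 6.95 and 9.19. The groups did not overlap, but the highest control lay close to the lowest knockdown library and knockdown replicate 3 stood above the other two. The log2 fold change was 0.32 ± 0.10 (SE, edgeR adjusted p 0.0072). Without knockdown replicate 3 it was 0.19 with an edgeR adjusted p of 0.16. Without control replicate 1 the edgeR adjusted p was 0.072, and under DESeq2 it was 0.059.

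KLF5, which drives growth of epithelial progenitors and takes part in lung maturation, was the most abundant member per gene length (chromosome 13, 73054976 to 73077542; ENSG00000102554.14). Its controls read 96.4, 89.2 and 89.9 CPM and its knockdown libraries 99.6, 96.3 and 98.6. Control replicate 1 lay just above the lowest knockdown library, so the groups overlapped. The log2 fold change was 0.10 ± 0.03 (SE, edgeR adjusted p 0.0087), a rise of 6.83%. The call was lost without control replicate 2 (edgeR adjusted p 0.089) and without control replicate 3 (0.063), and across the alternatives the value ran from 0.07 to 0.20.

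KLF7, best known from developing neurons but expressed in many tissues, lies on chromosome 2 from 207074137 to 207167267 (ENSG00000118263.15). Controls gave 17.9, 19.3 and 16.4 CPM, and knockdown libraries gave 21.9, 22.2 and 21.4. All knockdown libraries were above all controls, and they were closer together, with a coefficient of variation of 1.95% against 8.10% in controls. Its log2 fold change was 0.29 ± 0.06 (SE, edgeR adjusted p 4.1e-05), and the call held in each of the 16 alternatives.

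KLF3, the only member of subgroup 1 in the set, also rose. This CtBP-binding repressor, known from red cell and fat cell differentiation, lies on chromosome 4 from 38664196 to 38701042 (ENSG00000109787.13). It measured 35.0, 32.9 and 36.6 CPM in controls and 40.1, 44.5 and 42.6 in knockdown libraries, with no overlap. Its log2 fold change was 0.28 ± 0.04 (SE, edgeR adjusted p 6.5e-07), and the call held in each of the 16 alternatives. CTBP1, the gene of a corepressor that KLF3 binds, is described with the cofactors.

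Subgroup 3, the Sin3A-binding members, was mixed. KLF11 and KLF13 rose, KLF16 fell, KLF9 and KLF10 were not called, and the median over the 5 was -0.05 (log2). The difference between subgroups 2 and 3 was not tested. KLF11, a repressor induced early by TGF-beta (chromosome 2, 10042849 to 10054836; ENSG00000172059.11), gave 6.19, 6.67 and 5.75 CPM in controls and 7.32, 7.45 and 7.36 in knockdown libraries. The groups did not overlap, at only 183 to 266 counts per library. Its log2 fold change was 0.25 ± 0.09 (SE, edgeR adjusted p 0.025), and the call was lost under 5 of 16 alternatives, with adjusted p up to 0.12 (DESeq2, and edgeR without control replicate 3); the other 3 were edgeR without control replicate 1 (0.057), without knockdown replicate 2 (0.06) and without knockdown replicate 3 (0.051).

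KLF13, a factor of T cells and heart that controls the chemokine gene CCL5, had the highest CPM of the set (chromosome 15, 31326855 to 31435665; ENSG00000169926.11). Its values were 109.9, 108.0 and 107.3 in controls and 111.6, 115.4 and 115.0 in knockdown libraries, separate but close. In the fit, the log2 fold change was 0.07 ± 0.03 (SE, edgeR adjusted p 0.026), a rise of 5.16%. The call was lost under 6 alternatives: DESeq2 (adjusted p 0.093), no filter on low counts (0.052) and edgeR without control replicate 2 (0.08), control replicate 3 (0.088), knockdown replicate 2 (0.075) or knockdown replicate 3 (0.091). Over all 16 alternatives the value ran from 0.06 to 0.18. Its chemokine target CCL5 was near 0, with a mean of 0.021 CPM in each group.

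KLF16, a repressor first described at dopamine receptor genes, was the only member called lower (chromosome 19, 1852399 to 1863568; ENSG00000129911.9). Controls gave 24.4, 22.8 and 24.7 CPM and knockdown libraries 21.1, 20.2 and 22.1, with all knockdown libraries below all controls. The log2 fold change was -0.18 ± 0.05 (SE, edgeR adjusted p 0.0053). With total-count scaling it was -0.10 (edgeR adjusted p 0.12), and on log2(FPKM + 1) and log2(FPKM + 0.1) it was -0.06 and -0.07 (limma adjusted p 0.37 and 0.36), so its call depended on the scaling.

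KLF9, a target of glucocorticoid and thyroid hormone receptors, gave 13.1, 12.9 and 12.9 CPM in controls and 12.1, 12.5 and 10.96 in knockdown libraries (chromosome 9, 70384597 to 70414624; ENSG00000119138.5). The knockdown libraries lay below the controls, but the log2 fold change of -0.13 ± 0.07 (SE) was not called (edgeR adjusted p 0.12; 95% interval -0.27 to 0.01), and no alternative called it. It was -0.08 without knockdown replicate 3, -0.05 with total counts and -0.01 on log2(FPKM + 1), and in deposited FPKM the groups overlapped (2.01 to 2.05 and 1.90 to 2.10). KLF10, the TGF-beta-inducible early gene closest to KLF11, gave 57.7, 54.0 and 55.9 CPM in controls and 52.0, 54.3 and 55.5 in knockdown libraries, with overlapping groups (chromosome 8, 102648779 to 102655902; ENSG00000155090.15). Its log2 fold change was -0.05 ± 0.04 (SE, edgeR adjusted p 0.3; 95% interval -0.12 to 0.03), and it became 0.03 with total counts and 0.06 on both FPKM scales, without a call in any of the 16.

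**Figure D2:**
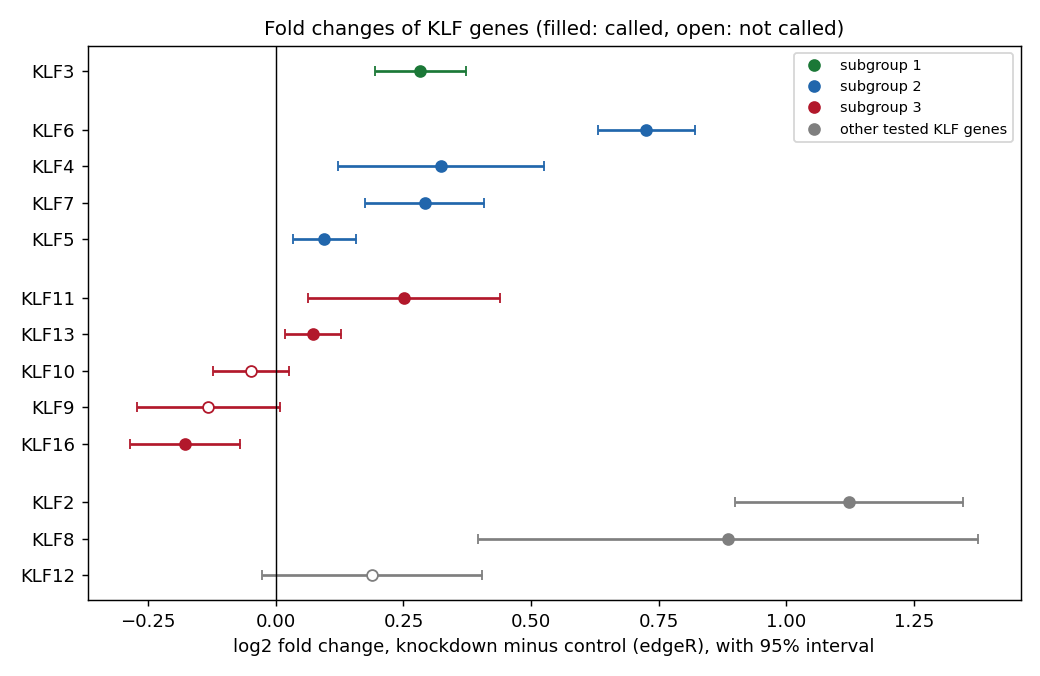
Log2 fold change of knockdown minus control (edgeR) with its 95% interval for the 10 KLF genes by subgroup and for the 3 other tested KLF genes; filled points were called, open points were not. The interval of KLF6 (0.63 to 0.82) lies above those of the other 9 members, KLF16 is the only filled point below 0, and KLF2 lies above KLF6.

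Levels between genes were compared on deposited FPKM, which divides by gene length. In controls KLF5 stood highest at 20.4 ± 0.90 (SD, n = 3), followed by KLF10 at 11.9 ± 0.43, KLF13 at 9.39 ± 0.12, KLF16 at 6.60 ± 0.32, KLF3 at 4.20 ± 0.25, KLF6 at 3.04 ± 0.10 and KLF9 at 2.03 ± 0.02. The lowest were KLF7 at 1.57 ± 0.12, KLF4 at 1.41 ± 0.14 and KLF11 at 1.10 ± 0.08. Neighbours in this order did not overlap between libraries except KLF7 and KLF4. In knockdown libraries KLF6 reached 5.42 ± 0.18 FPKM and overlapped KLF3 at 5.52 ± 0.33, a gene it lay below in every control. KLF7 at 2.08 ± 0.03, KLF9 at 2.003 ± 0.10 and KLF4 at 1.89 ± 0.32 overlapped in turn. KLF13 had the highest CPM but ranked 3 per length.

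The summed FPKM of the 10 members was 61.7 ± 1.595 (SD, n = 3) in controls and 71.2 ± 2.28 in knockdown libraries, 1.16 times as high. In TMM-scaled CPM, under which the gap was smaller, the members summed to 376 to 389 in controls and 413 to 420 in knockdown libraries. Of the summed FPKM, KLF6 made up 4.93% ± 0.22 in controls and 7.62% ± 0.35 in knockdown libraries. KLF10 went from 19.3% to 17.5% and KLF16 from 10.7% to 8.83%, while KLF5 made up 33.1% and 33.0%. These shares do not depend on library scaling, and they carry no test.

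**Figure D3:**
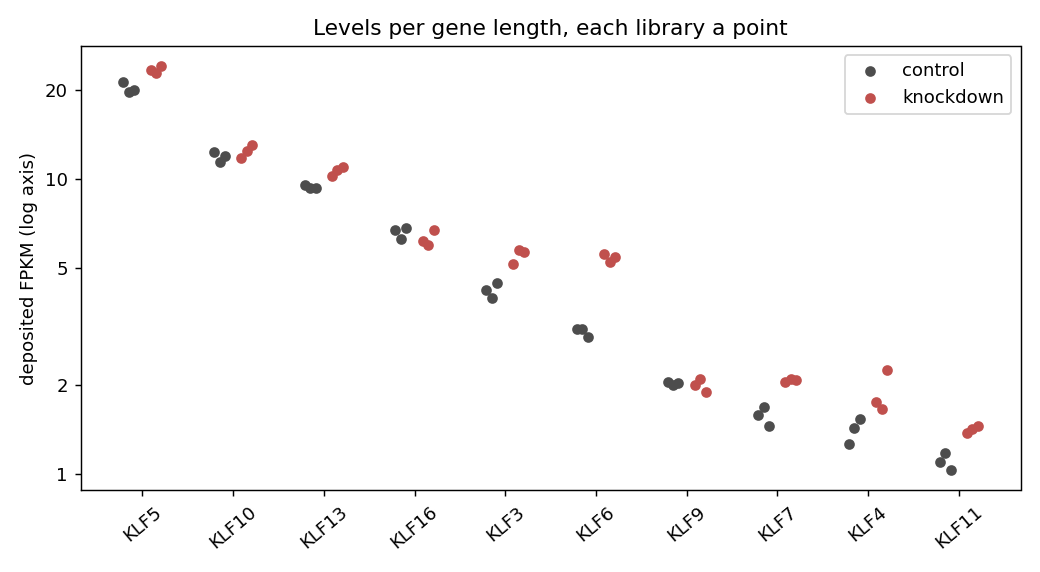
Deposited FPKM (log axis) of each KLF gene, with a point for each control and knockdown library, ordered by the control mean. KLF5 is highest in both groups, and the KLF6 points move from 2.92 to 3.11 in controls up to 5.23 to 5.58, the level of KLF3 in knockdown libraries.

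The 3' ends of the members were examined because STAU1 acts through 3' untranslated regions of its target mRNAs and because AU-rich pentamers (ATTTA) are a known decay signal of quickly induced genes. On GENCODE 29 models (the coding transcript with the longest coding part), 3' untranslated lengths ran from 899 nt for KLF4 to 7076 nt for KLF7, with 3543 nt for KLF6, against a median of 1018 nt over 12907 tested coding genes. All 10 members held ATTTA, as did 68.8% of those genes. Neither that share nor the next was matched for length, and all members but KLF4 were longer than the median. The longer TATTTAT was found in 5 members and in 31.6% of genes. These sites are shown with their flanks, capitals marking the heptamer, because they were found in KLF5, KLF6, KLF7 and KLF11, which rose, and also in KLF16, which fell.
KLF5: ttgtttatcttTATTTATtttgtggtaat
KLF6: tatgtttctctTATTTATgccttgaggac
KLF7: gccttctctggTATTTATaatatatcaca
KLF11: ttttagaaaaaTATTTATattgttggtgc
KLF16: gaatcctggctTATTTATtttcctctgtc
KLF3, KLF4 and KLF13, which also rose, held no TATTTAT, nor did KLF9 and KLF10. Per 1000 nt, the pentamer count was 1.69 in KLF6, 3.02 in KLF5, 0.893 in KLF13 and 0.971 in KLF16, against 2.26 over all those genes. Nothing about binding by STAU1 or by decay factors was measured.

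Shared sequence and overlapping genes bear on whether counts belong to the named member. The 3 zinc fingers, 243 nt of coding sequence in each of the 10, were most alike between KLF6 and KLF7 (83.5% identity), then KLF10 and KLF11 and KLF13 and KLF16 (78.2% each). Over full transcripts the longest run shared by any of the 45 pairs was 26 nt, between KLF6 and KLF7 within the fingers, shorter than the reads named in the labels' protocols. A single transcript of each member was compared, and only with those of the other members. Sequence shared with other KLF genes, SP genes or pseudogenes was not examined. KLF3-AS1 overlaps KLF3 by 688 bp on the opposite strand and had 12 to 24 counts per library against 1008 to 1540 for KLF3. AP002851.1 starts 562 bp from KLF10 on the opposite strand, with 62 to 71 counts per library. AC104794.4, opposite KLF11, had 29 counts over all libraries and AC012615.3, opposite KLF16, had 49. No source used here gives the strand setting of the counting, so reads of these overlapping pairs may not be separated.

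Of the 8 other human KLF genes looked up, 7 were listed and 3 were tested. KLF2, the flow-sensitive member of subgroup 2, had 3.32 ± 0.02 CPM (SD, n = 3) in controls and 7.23 ± 0.69 in knockdown libraries, a log2 fold change of 1.12 ± 0.11 (SE, edgeR adjusted p 6.8e-12). KLF8, a subgroup 1 member, went from 0.716 ± 0.060 to 1.33 ± 0.05 CPM, and its log2 fold change was 0.89 ± 0.24 (SE, edgeR adjusted p 0.0023). KLF12, also of subgroup 1, had 5.24 ± 0.43 and 5.98 ± 0.66 CPM and was not called (log2 fold change 0.19, edgeR adjusted p 0.15; 0.038 with total counts); its value was 0.10 without knockdown replicate 2 and 0.12 without control replicate 3. On log2(FPKM + 1), a scale that understates changes of low genes, KLF2 stood at 0.73 and KLF8 at 0.06, and KLF8 at 0.40 on log2(FPKM + 0.1), with each still called (limma).

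SP factors share the zinc-finger fold and the GC box with the KLF family. Of 9, 6 were tested, and 1 rose and 1 fell, with 22.2% and 22.0% of all tested genes called higher and lower. The median of the 6 was -0.04. SP9 rose from 7.84 ± 0.64 to 11.01 ± 0.70 CPM (SD, n = 3; log2 fold change 0.49). SP1, the ubiquitous GC-box activator, went from 65.5 ± 0.67 to 61.2 ± 2.09 CPM (log2 fold change -0.10, edgeR adjusted p 0.017), a call lost with total counts (-0.02, adjusted p 0.65), under DESeq2 (0.072) and without control replicate 1 (0.054), control replicate 3 (0.056), knockdown replicate 1 (0.11) or knockdown replicate 3 (0.053), and 0.01 on both FPKM scales. SP2 (-0.13), SP3 (0.02), SP4 (0.08) and SP6 (-0.24; -0.013 without control replicate 3) were not called. SP3 was 0.10 with total counts (adjusted p 0.014).

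KLF proteins act through cofactors. Of 15 genes for corepressors and coactivators, 5 rose (against 22.2% of all tested genes), 2 fell (against 22.0%) and 8 were not called. The median of the 15 was 0.09 on the log2 scale. HDAC1, a histone deacetylase of Sin3A and CtBP complexes, rose from 93.3 ± 2.78 to 109 ± 3.22 CPM (log2 fold change 0.22). CTBP1 fell from 87.9 ± 0.29 to 75.9 ± 4.45 CPM (log2 fold change -0.21), with -0.09 and -0.10 and no call on the FPKM scales (limma adjusted p 0.19 and 0.18). SIN3A itself was not called (-0.08, edgeR adjusted p 0.079) except without knockdown replicate 3 (-0.10, adjusted p 0.029), and it was 0.0011 with total counts and 0.03 on both FPKM scales.

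KLF proteins are short-lived and removed by ubiquitin ligases. Of 10 genes for ligases and deubiquitinases reported to act on them, 5 rose, 2 fell and 3 were not called. Of all tested genes, 22.2% rose and 22.0% fell. The median of the 10 was 0.12. WWP1, a ligase of KLF5, went from 55.1 ± 2.76 to 65.0 ± 1.49 CPM (log2 fold change 0.24), FBXO32, an F-box ligase subunit reported for KLF4, from 8.40 ± 0.31 to 11.7 ± 1.04 CPM (0.48) and USP3, a deubiquitinase reported for KLF5, from 89.9 ± 2.74 to 101 ± 2.13 CPM (0.17), and all were called higher.

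Upstream, the ERK5-MEF2 route is a known inducer of KLF2 and KLF4. Of its 8 genes 7 were tested: 3 rose (against 22.2% of all tested genes), 1 fell (against 22.0%) and 3 were not called. The median of the 7 was 0.03. MAP3K2, a kinase at the top of the route, rose by 0.39, from 30.1 ± 0.43 to 39.4 ± 1.71 CPM. MAP2K5 (0.16) and MAP3K3 (0.15) were called higher by edgeR (adjusted p 0.032 and 0.043), with the call lost under 5 and 7 of 16 alternatives; leaving out control replicate 1 or 3 or knockdown replicate 2 or 3, each alone, gave an edgeR adjusted p between 0.089 and 0.13 for MAP2K5 and between 0.08 and 0.12 for MAP3K3, for which it was 0.066 without knockdown replicate 1.

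TGF-beta induces KLF10 and KLF11. Of 14 genes around that pathway 8 rose (against 22.2% of all tested genes), 3 fell (against 22.0%) and 3 were not called. The median of the 14 was 0.15. The ligand gene TGFB2 rose from 32.4 ± 1.38 to 52.9 ± 1.13 CPM (log2 fold change 0.71). The receptor genes TGFBR1 and TGFBR2 rose by 0.78 and 0.36. SMAD3, a signal transducer, fell from 184 ± 3.17 to 145 ± 2.07 CPM (log2 fold change -0.34). KLF11 rose in these libraries and KLF10 was not called.

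Glucocorticoids induce KLF9. Of 10 genes of the receptor and its classic targets 9 were tested: 4 rose and the other 5 were not called, with a median of 0.05. CEBPD, a transcription factor gene, rose by 0.79, the receptor gene NR3C1 by 0.29 and TSC22D3, a glucocorticoid-induced leucine zipper gene, by 0.30, while KLF9 itself was not called. Serum response factor and its partners drive immediate-early genes. Of 6 such genes 3 rose (ELK4 by 0.49, ELK3 by 0.37 and MRTFA by 0.20). The other 3 were not called, and the median of the 6 was 0.15. Both lists stand beside 22.2% of all tested genes called higher and 22.0% lower.

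Downstream, 25 genes reported as KLF targets were looked up and 23 tested: 10 rose, 6 fell and 7 were not called, with a median of 0.10. TGFBR1, TGFB1, SMAD7 and PER1 are in this list and in an upstream list. The cyclin genes CCNB1 and CCND1 fell by 0.54 and 0.51 on the log2 scale, from 193 ± 7.57 to 133 ± 1.599 CPM and from 290 ± 9.96 to 204 ± 7.26 CPM (SD, n = 3). CAV1, a membrane scaffold gene, rose by 0.37. CDKN1A, a cell-cycle inhibitor gene reported as a target of KLF4 and KLF6, rose from 114 ± 2.77 to 127 ± 2.83 CPM (log2 fold change 0.16), and CDKN1B rose by 0.31. The share of each list called higher or lower can be read beside the 22.2% and 22.0% of all tested genes; the lists were not tested as sets. The FPKM scales, which also change the offset and the test, moved some values by over 1.5 times without ending the call at that setting: on log2(FPKM + 0.1), USP3 at 0.28, MAP2K5 and MAP3K3 at 0.25, MRTFA at 0.31 and CDKN1A at 0.27, and on log2(FPKM + 1) FBXO32 was at 0.31 (0.53 on log2(FPKM + 0.1)) and SMAD3 at -0.21.

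**Figure D4:**
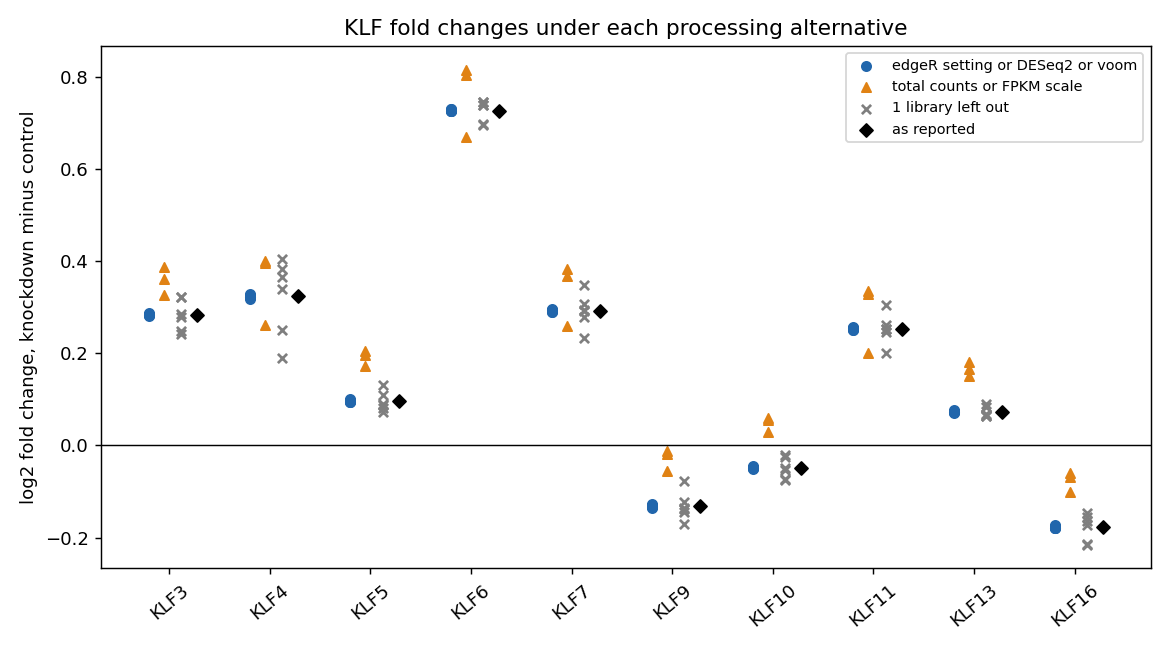
Log2 fold change of each KLF gene as reported (diamonds) and under the 16 alternatives: other edgeR settings, DESeq2 or voom (circles), total counts or FPKM scales (triangles) and 1 library left out (crosses). KLF6 stays between 0.67 and 0.81 and KLF3 and KLF7 stay above 0.23, while KLF10 changes sign with total counts or FPKM scales.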

How the data were processed

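Poly(A) RNA libraries of A549 cells were directional and sequenced as read pairs, per the labels' protocols. The authors deposited whole-number read counts per gene and, in a separate table, FPKM values rounded to 2 decimals. HISAT2, DESeq2 and GRCh38 are named in the submitters' processing notes with no version or role; no source used here gives the counting tool, the annotation or the strand setting. FPKM served for levels between genes and for 2 alternatives. Counts were filtered with filterByExpr (minimum count 10), scaled with TMM and tested over all genes with edgeR 4.0.16 (robust quasi-likelihood, limma 3.58.1, R 4.3.3) with Benjamini-Hochberg adjustment, with no covariates. SEs were taken from the log2 fold change and the F statistic. The common coefficient of variation that edgeR fitted within groups, which leaves out the sampling noise of counts, was 2.61%. All replicate pairs differed by more than sampling noise (chi-square per degree of freedom 1.78 to 2.88), so no libraries were merged as duplicates; this does not show separate cultures.

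Of the 16 alternatives, 6 left out a library; DESeq2 1.42.0, limma-voom and limma on log2 of deposited FPKM plus 1 or 0.1 were among the others. Gene models came from GENCODE 29, to which all 10 members matched by Ensembl gene identifier without its version. Start regions came from RefSeq promoters, where 8 of the 10 matched by symbol. Motifs were searched on both strands of promoters and on the sense strand of 3' ends. The code was tested on simulated counts. The members and the gene lists were chosen with earlier results of these data known. Named besides the members were STAU1, every other tested KLF or SP gene, the 3 genes of each pathway list with the smallest adjusted p, and overlapping or adjacent genes with at least 10 counts; SIN3A, SMAD3, CCL5, CDKN1A and CDKN1B were added after their values were seen, as were the marker genes named. A gene that this rule also picks is not reported here.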

Additional observations from a re-analysis of the deposited data

How the results depend on the processing

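KLF3, KLF6 and KLF7 kept their direction and call under each of the 16 alternatives. Of 160 values (10 members by 16 alternatives), 138 kept direction and side of the threshold, 19 lost the call and 3 changed sign. For the other named genes put through the alternatives it was 546, 20 and 7 of 576, with 3 newly called. Among the genes left out of these counts were CCL5, the markers other than KRT8, and the overlapping or adjacent genes. Members called higher numbered 4 under DESeq2 and 4 to 7 with a library left out, against 7. Members called lower numbered 0 with total counts and on both FPKM scales, where genes called lower over the whole table fell from 3759 to 2407, 1546 (FPKM + 1) and 1539 (FPKM + 0.1). KLF10 changed sign to 0.028 with total counts, 0.056 (FPKM + 1) and 0.060 (FPKM + 0.1), SP1 to 0.010 and 0.012 on the FPKM scales, and SIN3A to 0.0011, 0.026 and 0.032; with a library left out, SP3 ran from -0.0029 (without knockdown replicate 2) to 0.044 (without control replicate 3) and SP4 from -0.0014 (without control replicate 3) to 0.14 (without control replicate 1). The cause was not tested. With a replicate block, 7 members were called higher and 1 lower, with 3821 and 3844 genes over the whole table. Same-numbered libraries correlated at 0.04, 0.02 and 0.11 in their deviations from group means, and differently numbered ones at -0.10 to 0.06. Knockdown replicates 2 and 3 correlated most with the same-numbered control, while knockdown replicate 1 correlated more with control replicate 2 (0.06). The numbers were not taken as pairs in the main fit.

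Precision is limited by 3 libraries a group and by counts of 175 to 332 per library for KLF4 and 183 to 266 for KLF11, and 1 library decided the call of KLF4, KLF5, KLF11 or KLF13 in the cases given above. Counting without a known strand setting limits KLF3, KLF11 and KLF16 by the overlapping transcripts given.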

Other observations

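KLF and SP genes that did not pass the filter were near 0 in these cells. KLF15 and KLF17 had means of 0.021 and 0.118 CPM in controls and 0 and 0.099 CPM in knockdown libraries. KLF1 and KLF14 had 0 counts in all 3 controls and means of 0.0092 and 0.010 CPM in knockdown libraries. SP5, SP7 and SP8 had control means of 0.075, 0.032 and 0.245 CPM and knockdown means of 0.041, 0.021 and 0.223 CPM. Of other transcripts with KLF names, KLF3-AS1 is given in the report, and KLF3P1 had 2 counts over all 6 libraries, KLF2P2 had 1, KLF7-IT1 had 5 and KLF2-DT had 2.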
